A study of Mus musculus with 29 samples.

Results

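The genes described here are 7 genes of lymphatic vessels, Lyve1, Prox1, Flt4, Pdpn, Reln, Mmrn1 and Vegfc, among 24411 genes listed in one count table and 55487 in another. Lyve1 was chosen because it was lower at day 7 in nerve-injured digits than in sham digits, and the others because they belong to the same vessel type. The comparison of nerve injury with sham at day 7 is therefore a description here, with no test. The question was whether a lower Lyve1 level went with lower levels of the other lymphatic genes.

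Poly(A) RNA from mouse digits was sequenced in 29 libraries. The tissue was cut distal to the metacarpophalangeal joint and the nail was taken off. In the time course, every animal lost the tip of left hindlimb digits by a cut through the terminal bone, 5 days after surgery. The surgery was spared nerve injury (SNI), in which 2 sciatic branches (tibial, common peroneal) are cut and the sural branch is left, or a sham operation without the cut. Days are counted from amputation. Sham libraries number 3 for day 7, 3 for day 14 and 2 for day 21, and there are 3 SNI libraries for each of these days. In the second set every animal had SNI, and digits were amputated (n = 3 at day 7 and n = 3 at day 14) or left unamputated (n = 3 at day 7 and n = 3 at day 14). There was no unamputated sham group, so the effect of amputation was measured in SNI digits alone. The unamputated digits carry a treatment label without amputation beside a time given in days after it, and were grouped by the treatment label. The labels name neither strain, sex nor age, and no genotype.

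Lymphatic capillaries and collecting vessels drain fluid and immune cells from the skin. PROX1 is the transcription factor that sets and keeps lymphatic endothelial identity, and the growth factor VEGF-C drives sprouting and survival of these cells through the receptor VEGFR3, encoded by Flt4. LYVE1, a hyaluronan receptor, and podoplanin, encoded by Pdpn, are surface proteins of lymphatic endothelium. Neither is exclusive to it: resident macrophages can carry LYVE1, and podoplanin is made by keratinocytes, fibroblast subsets and osteocytes. Reelin (Reln) and multimerin 1 (Mmrn1) are secreted by lymphatic endothelium, and multimerin 1 is also stored in platelets.

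Total counts were between 35654192 and 56809440 per library in the time course and between 31274245 and 43315729 in the second set. Levels are given as CPM (counts per 1000000 counts of the library, scaled by TMM, the trimmed mean of M values), and the tables were counted and scaled apart. A pair of time course libraries stood apart by a TMM factor under 0.8, sham day 21 replicate 1 (0.633) and SNI day 7 replicate 2 (0.761). All 7 genes had reads in every library and passed the filter on low counts in both tables. Per kilobase of exon, the median over time course libraries was highest for Pdpn (8.62 CPM per kb) and Lyve1 (7.55 CPM per kb) and lowest for Prox1 (0.112 CPM per kb). In the second set Lyve1 was highest (median 11.9 CPM per kb) and Prox1 again lowest (0.239 CPM per kb). Prox1 therefore had the lowest level per length of the 7.

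At day 7 after amputation Lyve1 was lower in SNI digits, and so were Prox1, Flt4 and Reln, whereas Pdpn was higher and Mmrn1 and Vegfc were near the sham level. Lyve1 was at 39.9, 32.6 and 22.0 CPM in the sham libraries and at 15.1, 13.9 and 16.2 CPM in the SNI libraries. Every SNI library was below every sham library. The log2 fold change was -1.07 ± 0.24 (SE, edgeR), a level 2.09-fold lower. In bulk tissue, fewer cells of a type and less RNA per cell cannot be told apart.

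**Figure D1:**
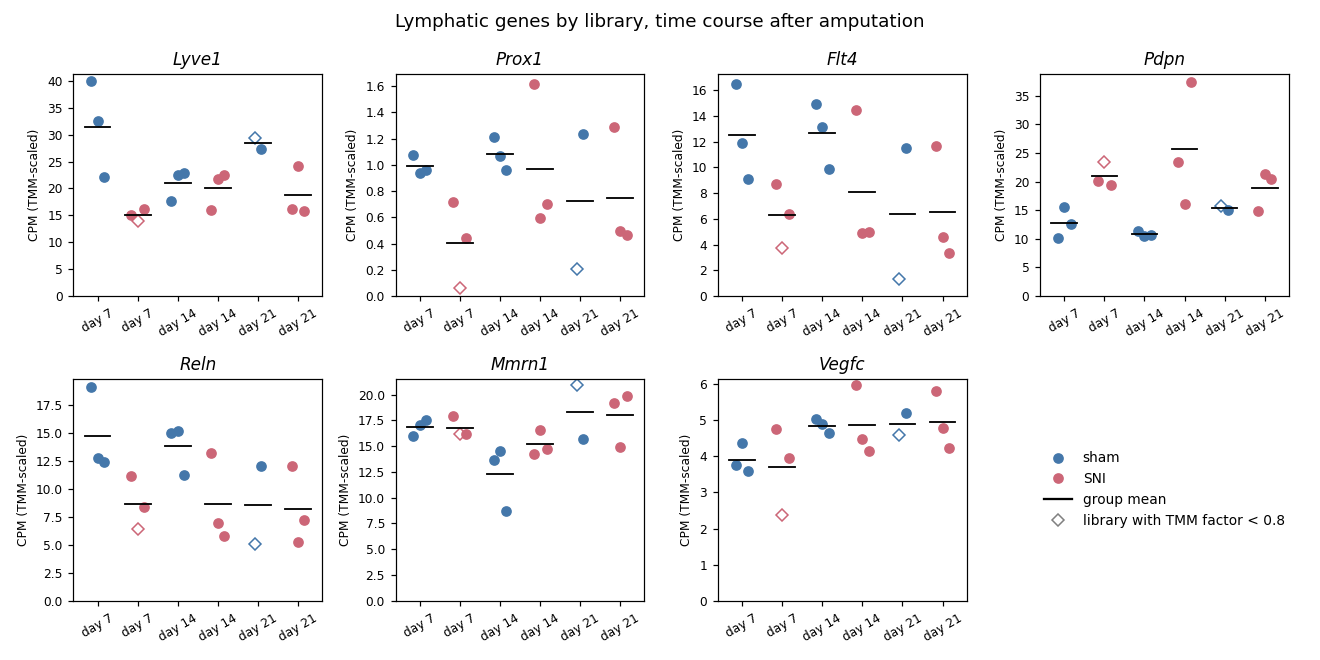
Level of each gene (CPM, y axis) in the 17 time course libraries by day after amputation (x axis), with 1 point per library and a line at the group mean. Lyve1 in SNI at day 7 lies between 13.9 and 16.2 CPM, below the sham range of 22.0 to 39.9 CPM, and the open diamonds mark the 2 libraries with a low TMM factor, which hold the 2 lowest Prox1 values.

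Prox1, the identity factor, was at 1.07, 0.937 and 0.965 CPM in sham digits at day 7 and at 0.721, 0.0608 and 0.443 CPM in SNI digits. The lowest of these values was 2 reads in SNI replicate 2, the library with a low TMM factor. The log2 fold change was -1.24 ± 0.71 (SE), and -0.72 in the time course without both libraries of low TMM factor. Flt4, the VEGF-C receptor, was at 16.5, 11.9 and 9.06 CPM in sham digits and at 8.73, 3.71 and 6.40 CPM in SNI digits. The SNI libraries were again all lower, with a log2 fold change of -0.99 ± 0.68 (SE), or -0.68 without the low-factor libraries. Reln was at 19.1, 12.7 and 12.4 CPM in sham digits and at 11.1, 6.42 and 8.35 CPM in SNI digits, without overlap, with a log2 fold change of -0.77 ± 0.41 (SE).

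Pdpn went the other way at day 7. It was at 10.1, 15.5 and 12.6 CPM in sham digits and at 20.0, 23.4 and 19.5 CPM in SNI digits, a log2 fold change of 0.72 ± 0.27 (SE), or 0.43 with limma voom. Mmrn1 was at 16.8 ± 0.78 CPM in sham (SD, n = 3) and 16.8 ± 1.0 CPM in SNI digits (SD, n = 3), with a log2 fold change of -0.01 ± 0.20 (SE). Vegfc, the ligand, was at 3.91 ± 0.42 CPM (SD, n = 3) and 3.70 ± 1.2 CPM (SD, n = 3), with a log2 fold change of -0.08 ± 0.25 (SE). In both genes the libraries of the groups overlapped.

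Of the 7 genes, 4 were lower in SNI without overlap of libraries and 1 was higher, and these states were the same for each gene without SNI replicate 2. Over all 16084 genes tested, 37.4% had groups without overlap at day 7, 23.8% lower in SNI and 13.7% higher. A gene was called where its p in edgeR's quasi-likelihood test, adjusted by Benjamini-Hochberg, was under 0.05. At day 7 this called 0 genes, 0% of those tested, while 2191 had an unadjusted p under 0.05. DESeq2 called 54 and limma voom with sample quality weights 7749. Without both libraries of low TMM factor edgeR again called 0, and 833 had an unadjusted p under 0.05. Since Lyve1 was picked in this comparison, nothing is read from these shares about the 7 genes.

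Blood vessel genes and other cell markers are given for the same samples, and 0 genes of any list were called at day 7. Of 13 genes listed for blood endothelium, 9 had a negative log2 fold change at day 7, with a median of -0.55 beside 0.02 over all genes. The summed level of the 13 was 363 to 467 CPM in sham and 293 to 385 CPM in SNI digits. Cdh5, the cadherin of endothelial junctions in blood and lymphatic vessels, was at 42.8, 37.7 and 24.3 CPM in sham and at 26.4, 10.3 and 19.8 CPM in SNI digits. Cldn5, 1 of the 4 positive genes of that list, was at 19.9, 26.8 and 27.4 CPM in sham and at 31.5, 55.1 and 38.6 CPM in SNI digits. Flt4 reads were 38.5%, 31.7% and 37.3% of Cdh5 reads in sham and 33.1%, 35.9% and 32.4% in SNI digits. Lyve1 reads per Flt4 read were 2.42, 2.73 and 2.43 in sham and 1.73, 3.74 and 2.53 in SNI digits. Both ratios overlapped between the groups. All 6 myelin genes had a negative value, with a summed level of 180 to 389 CPM in sham and 91.4 to 190 CPM in SNI digits. The 5 neutrophil genes were all positive, and their summed level was 19.1 to 36.0 CPM in sham digits and 56.2 to 10122 CPM in SNI digits. The SNI median was 128 CPM, so the top of that range came from 1 library. Of 10 resident macrophage genes 6 were negative, with summed levels of 528 to 889 CPM in sham and 536 to 706 CPM in SNI digits. Cells that also make podoplanin overlapped in their summed marker levels, at 9085 to 10052 CPM in sham and 7420 to 15555 CPM in SNI digits for 5 basal keratinocyte genes and at 1945 to 4312 CPM and 346 to 7213 CPM for 5 fibroblast genes. In each of these 2 lists 4 genes were negative and 1 positive, with a median log2 fold change of -0.55 for keratinocytes and -0.39 for fibroblasts. Of 5 osteocyte genes, also of podoplanin-making cells, 4 were tested and all 4 were positive, with a median log2 fold change of 0.46 and summed levels of 11.8 to 18.1 CPM in sham and 2.89 to 32.2 CPM in SNI digits. The 6 platelet genes summed to 39.4 to 53.6 CPM in sham and 38.2 to 147 CPM in SNI digits. None of these lists had a marker at 0 in all libraries of a day 7 group. The part of these cells in the values of Lyve1, Pdpn and Mmrn1 was not tested.

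Among genes that act with the 7, all 8 of the VEGF-C pathway (processing enzymes, co-receptors and the second ligand Vegfd) had a negative value at day 7, with a median log2 fold change of -0.80 and 0 called. Their summed levels overlapped, at 145 to 230 CPM in sham and 44.1 to 182 CPM in SNI digits. Of 7 transcription factors of lymphatic development 5 were negative and 2 positive, with a median of -0.38. Of 10 further lymphatic markers 9 were tested and 7 were positive, with a median of 0.20. The untested one, the chemokine gene Ccl21a, was listed at 0 in all 17 time course libraries and read in all 12 libraries of the second set.

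At the later days the Lyve1 difference was smaller, and of the other 6 genes Pdpn alone had SNI and sham libraries apart, at day 14. Lyve1 was at 17.6, 22.6 and 23.0 CPM in sham and at 16.0, 21.7 and 22.5 CPM in SNI digits at day 14. At day 21 it was at 29.5 and 27.4 CPM in sham and at 16.2, 24.2 and 15.8 CPM in SNI digits. The groups overlapped at day 14, where the log2 fold change was -0.07 ± 0.24 (SE), and did not overlap at day 21, where it was -0.60 ± 0.27 (SE), or -0.31 with limma voom. At day 21 the shares of all genes without overlap were 3.3% lower and 4.36% higher. Pdpn at day 14 was at 11.3, 10.6 and 10.7 CPM in sham and at 23.4, 16.1 and 37.4 CPM in SNI digits, all higher, as were 11% of all genes, with a log2 fold change of 1.24 ± 0.27 (SE). At day 21 it was at 15.7 and 15.1 CPM against 14.8, 21.4 and 20.5 CPM.

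The average of days 14 and 21, which used none of the day 7 libraries, was the tested nerve injury effect. For Lyve1 it was -0.34 ± 0.18 (SE, log2) and did not pass (adjusted p = 1.0 by edgeR). Over all genes, 0 of 16084 were called by edgeR (0%), 655 had an unadjusted p under 0.05, and DESeq2 called 18. Pdpn was at 0.77 ± 0.20 (SE), higher in the mean at both days, and did not pass either (adjusted p = 1.0, unadjusted p = 0.0021 by edgeR). The other values were -0.37 ± 0.30 for Reln, -0.31 ± 0.51 for Flt4, -0.07 ± 0.52 for Prox1, 0.14 ± 0.15 for Mmrn1 and 0.01 ± 0.19 for Vegfc (log2 ± SE), each with an adjusted p of 1.0. Without the libraries of low TMM factor edgeR again called 0 genes, but 5185 had an unadjusted p under 0.05, and the adjusted p of the 7 genes lay between 0.149 and 0.878.

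Prox1, Flt4 and Reln varied several-fold within the SNI groups at these days. Flt4 was at 14.4 CPM in SNI day 14 replicate 1 and at 4.89 and 5.00 CPM in the others of that group. At day 21 it was at 11.7 CPM in replicate 1 and at 4.57 and 3.37 CPM in the rest. Prox1 had the same split, with 1.61 CPM against 0.592 and 0.698 CPM at day 14 and 1.29 CPM against 0.493 and 0.464 CPM at day 21. Cdh5 followed, at 45.0 CPM against 16.5 and 14.0 CPM at day 14 and at 30.5 CPM against 12.4 and 9.50 CPM at day 21. Lyve1 did not: in these libraries it was at 16.0 CPM against 21.7 and 22.5 CPM, and at 16.2 CPM against 24.2 and 15.8 CPM. Cldn5, of the same list as Cdh5, went the other way. It was at 19.3 CPM in replicate 1 against 39.6 and 37.5 CPM at day 14. At day 21 it was at 30.2 CPM against 39.5 and 63.1 CPM.

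A sham library showed the split at its largest. Sham day 21 replicate 1, of low TMM factor, held 1.29 CPM of Flt4 and 0.209 CPM of Prox1, against 11.5 and 1.24 CPM in replicate 2. Its Lyve1 was the higher of both at 29.5 CPM, and so were its Mmrn1 (20.9 against 15.7 CPM) and Cldn5 (84.6 against 25.4 CPM). With 2 sham libraries at day 21, the SNI effect on Flt4 at that day ranged from -0.80 without replicate 1 to 2.34 without replicate 2 (log2), and that on Prox1 reached 1.83 without replicate 2. At day 14 the Flt4 value was -1.36 and the Prox1 value -0.74 without SNI replicate 1. The sign of the day 21 values for Flt4 and Prox1 thus rested on single libraries, and at day 14 the values stayed negative for Flt4 but moved with 1 library.

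Within SNI digits none of the other 6 genes passed with time by edgeR. Lyve1, chosen on the SNI day 7 libraries, is described without a test, with a log2 change of 0.41 ± 0.24 (SE) from day 7 to day 14 and of 0.32 ± 0.24 (SE) from day 7 to day 21. Prox1 had the largest values of the 7, at 1.22 ± 0.71 and 0.84 ± 0.72 (SE, log2), starting from the day 7 group that held the library with 2 reads. The background was 0% in both comparisons, with 0 genes called by edgeR, 487 and 623 at an unadjusted p under 0.05, and 1 and 9 called by DESeq2. In sham digits, described without a test, Lyve1 was at 31.5 ± 9.0 CPM at day 7 (SD, n = 3) and 21.1 ± 3.0 CPM at day 14 (SD, n = 3), so that the sham level at day 14 was near the SNI level of 20.0 ± 3.6 CPM (SD, n = 3). Between these sham days all 10 resident macrophage genes (median log2 change -0.95) and all 9 general macrophage genes (median -0.82) also had negative values, with summed levels of 528 to 889 CPM at day 7 and 418 to 540 CPM at day 14 for the resident ones. These sums overlapped, and Gas6 alone made up 588, 517 and 333 CPM of them at day 7 and 272, 370 and 309 CPM at day 14. The part of macrophages in the sham Lyve1 levels was not tested.

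Ordered by mean level, Lyve1 in the time course ran from sham day 7 through sham day 21 (28.5 CPM, n = 2), sham day 14, SNI day 14 and SNI day 21 (18.7 ± 4.7 CPM, SD, n = 3) to SNI day 7 (15.1 ± 1.2 CPM, SD, n = 3). Neighbours in this order overlapped, except sham day 21 and sham day 14.

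Lyve1 was also lower after amputation, and of the other 6 genes none was called lower with it. In digits that all had SNI, Lyve1 was at 35.7, 19.2 and 16.9 CPM with amputation and at 42.9, 46.9 and 73.3 CPM without it at day 7. At day 14 it was at 13.9, 18.2 and 23.7 CPM with amputation and at 33.6, 40.5 and 46.4 CPM without. On each day every amputated digit was below every unamputated one. The log2 fold changes were -1.18 ± 0.31 (SE) at day 7 and -1.11 ± 0.31 (SE) at day 14, levels 2.27-fold and 2.16-fold lower.

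**Figure D2:**
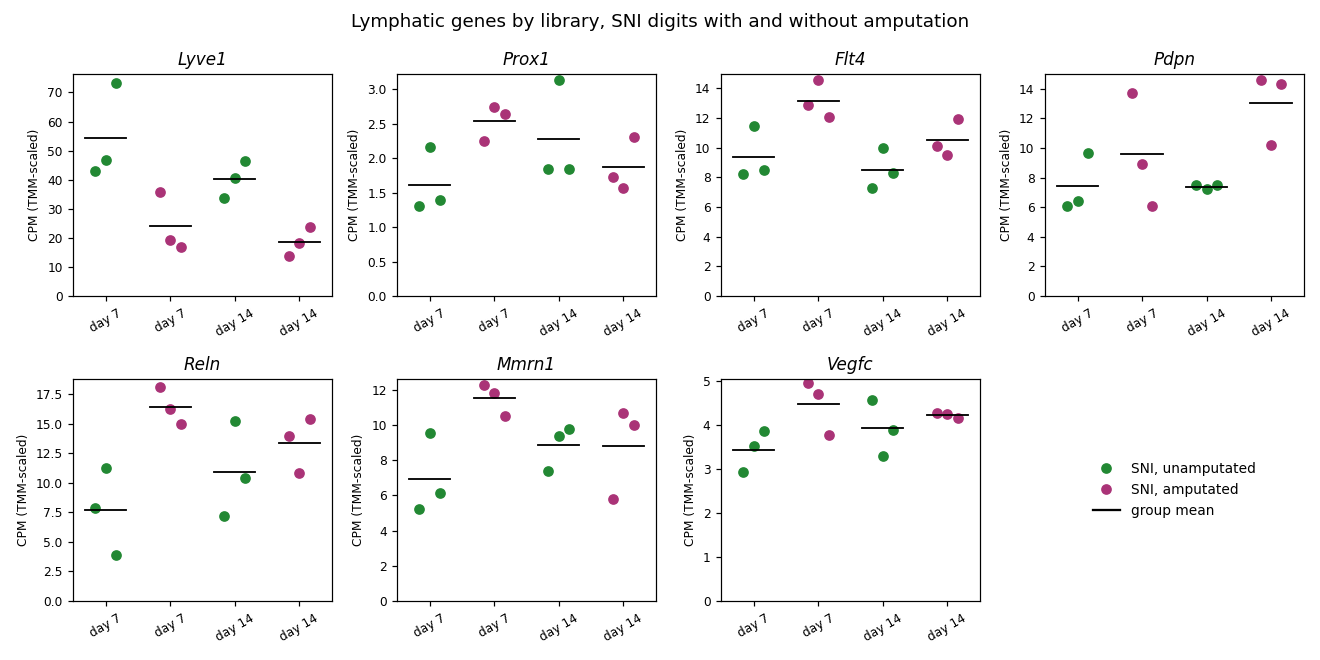
Level of each gene (CPM, y axis) in the 12 libraries of SNI digits with and without amputation, by day (x axis), with 1 point per library and a line at the group mean. Lyve1 is lower with amputation on both days, while the amputated libraries of Prox1, Flt4, Reln and Mmrn1 lie above the unamputated ones at day 7.

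By edgeR the Lyve1 difference did not pass on either day alone, with an adjusted p of 0.107 at day 7 and 0.0730 at day 14. DESeq2 and limma voom called it on both days, and edgeR fitted to the compared groups alone called it at day 14. Averaged over both days, a comparison added after seeing the data, it was -1.15 ± 0.22 (SE, log2), 2.21-fold lower, with an adjusted p of 0.0131 by edgeR. That call held under each alternative and with each of the 12 libraries left out in turn, where the adjusted p ranged from 0.0040 to 0.0355. The average called 2060 of 17475 genes (11.8%), 6.08% lower and 5.71% higher. The size of the Lyve1 difference did not pass as different between days (0.07 ± 0.44, SE, log2; adjusted p = 0.982 by edgeR). For that difference between days edgeR called 0 genes of 17475 (0%), 1092 had an unadjusted p under 0.05, and DESeq2 called 18.

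The identity factor Prox1 was at 2.25, 2.74 and 2.64 CPM in amputated and 1.30, 2.16 and 1.39 CPM in unamputated digits at day 7. All amputated digits were higher, with a log2 fold change of 0.65 ± 0.28 (SE) that did not pass (adjusted p = 0.288 by edgeR). At day 14 it was at 1.73, 1.57 and 2.30 CPM with amputation and 1.85, 3.12 and 1.85 CPM without, and the groups overlapped. The value there was -0.29 ± 0.28 (SE), and the difference between days, -0.94 ± 0.39 (SE, log2), did not pass (adjusted p = 0.772 by edgeR).

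Flt4 was at 12.9, 14.6 and 12.0 CPM in amputated and 8.22, 11.4 and 8.50 CPM in unamputated digits at day 7, again without overlap. At day 14 it was at 10.1, 9.48 and 11.9 CPM against 7.29, 9.97 and 8.26 CPM. The log2 fold changes were 0.49 ± 0.16 (SE, adjusted p = 0.184 by edgeR) and 0.30 ± 0.17 (SE, adjusted p = 0.286). In the added average Flt4 was higher at 0.39 ± 0.12 (SE, adjusted p = 0.0455 by edgeR), a call lost in 9 of 12 fits that left out a library, with an adjusted p of up to 0.113. Vegfc, its ligand, was at 4.47 ± 0.62 CPM with and 3.42 ± 0.47 CPM without amputation at day 7 (SD, n = 3 each), and at 4.22 ± 0.056 and 3.91 ± 0.63 CPM at day 14. Its log2 fold changes of 0.39 ± 0.18 and 0.11 ± 0.18 (SE) did not pass (adjusted p = 0.337 and 0.752 by edgeR).

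RNA of the secreted proteins was not lower with amputation at day 7 either. Reln was at 18.1, 16.3 and 15.0 CPM in amputated and 7.83, 11.2 and 3.90 CPM in unamputated digits. Its log2 fold change of 1.10 ± 0.34 (SE) did not pass by edgeR (adjusted p = 0.156) and passed by DESeq2. Mmrn1 was at 12.3, 11.8 and 10.5 CPM against 5.20, 9.55 and 6.13 CPM, a value of 0.73 ± 0.25 (SE, adjusted p = 0.189 by edgeR). Of the 6 platelet genes 5 were positive and 1 negative at day 7, with a median log2 fold change of 0.77. They summed to 39.5 to 57.9 CPM with and 41.7 to 47.5 CPM without amputation, with overlap. Their part in the Mmrn1 values was not tested. Neither Reln nor Mmrn1 had groups apart at day 14, where the values were 0.30 ± 0.33 and -0.01 ± 0.25 (log2 ± SE).

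Pdpn was at 13.7, 8.92 and 6.08 CPM in amputated and 6.09, 6.45 and 9.68 CPM in unamputated digits at day 7, with overlap. At day 14 it was at 14.6, 10.2 and 14.3 CPM against 7.47, 7.21 and 7.47 CPM, all amputated digits higher. The day 14 log2 fold change of 0.82 ± 0.26 (SE) did not pass by edgeR (adjusted p = 0.0931) and passed by DESeq2, by limma voom and by edgeR on the compared groups alone. Of 5 osteocyte genes 4 were tested and all 4 were positive on both days. The 5 summed to 8.97 to 20.1 CPM with amputation and 5.49 to 6.46 CPM without at day 14, and Dmp1 was called higher (1.76 ± 0.41, SE, log2, adjusted p = 0.0447 by edgeR), a call kept in 3 of 12 fits with a library left out. Of the 5 basal keratinocyte genes, none called, 3 were positive and 2 negative at day 14, with a median log2 fold change of 0.16. They summed to 10696 to 11990 CPM against 9666 to 10630 CPM, also without overlap. Over the 12 libraries Krt14 was at 3782 to 5281 CPM and Krt5 at 4124 to 5309 CPM, the largest parts of these sums. The 5 fibroblast genes were all positive on both days, none called, with median log2 fold changes of 0.096 and 0.082. They summed to 1563 to 8297 CPM against 1421 to 1800 CPM at day 14, with overlap. Most of that sum was Col1a1, at 845 to 7901 CPM over the 12 libraries, while no other gene of the list was above 216 CPM. The part of these cells in the Pdpn values was not tested.

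By edgeR 0 of the 7 genes were called on either day alone. The background was 236 of 17475 genes called at day 7 (1.35%) and 481 at day 14 (2.75%). At day 7, 4 of the 7 were higher without overlap and 1 was lower, where 10.4% and 8.86% of all genes were. At day 14, 1 was higher and 1 lower, where 15.9% and 16.7% of all genes were.

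**Figure D3:**
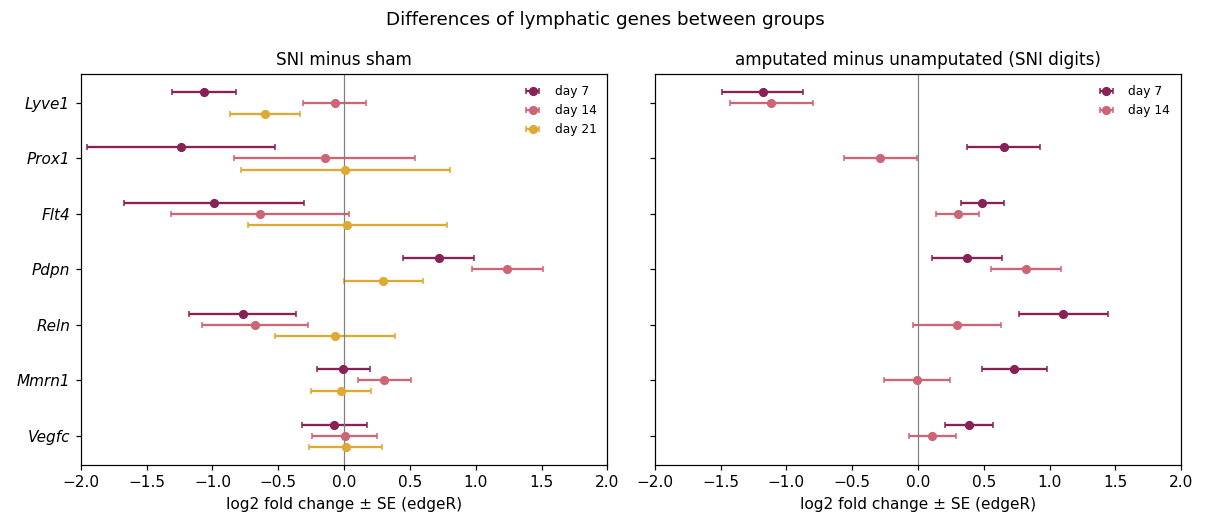
Log2 fold change with its standard error (x axis) for each gene (y axis), SNI minus sham at 3 days on the left and amputated minus unamputated SNI digits at 2 days on the right. Lyve1 is below 0 throughout, at -1.18 and -1.11 on the right, where Flt4, Reln, Pdpn and Vegfc are above 0 on both days.

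Within a library, Lyve1 reads can be set against those of another endothelial gene, which needs no library scaling. In the unamputated digits there were 5.22, 4.10 and 8.63 Lyve1 reads per Flt4 read at day 7 and 4.61, 4.07 and 5.62 at day 14. In the amputated digits there were 2.77, 1.32 and 1.41 at day 7 and 1.38, 1.92 and 1.99 at day 14. No amputated digit reached an unamputated one. The ratio was 2.99-fold lower with amputation (log2 difference -1.58, exact permutation test within day, two-sided, p = 0.005, adjusted p = 0.00857, n = 6 against 6).

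The ratio was also lower with amputation with each of the other 5 genes as the denominator. These ratios, that to Flt4 included, were added after seeing the data. For Prox1 the groups were apart within each day but not over both. There were 15.9 Lyve1 reads per Prox1 read in amputated day 7 replicate 1 and 13.0 in unamputated day 14 replicate 2. The log2 difference with amputation was -1.39 for Prox1, -1.43 for Vegfc, -1.54 for Mmrn1, -1.74 for Pdpn and -1.96 for Reln. Each had an exact p of 0.005, the smallest this permutation test can give, and an adjusted p of 0.00857 over the 12 ratios compared. All of these 6 ratios stayed past an adjusted p of 0.05 with each library left out in turn. Against Cdh5, which marks blood and lymphatic endothelium alike, Lyve1 was lower by 1.68 on the log2 scale (exact permutation p = 0.005, adjusted p = 0.03 over 6 ratios). Against the same gene Prox1 (-0.29, exact permutation p = 0.305) and Flt4 (-0.10, exact permutation p = 0.49) did not pass.

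In the time course at days 14 and 21 the SNI and sham ratios of Lyve1 to Prox1, Flt4, Reln, Mmrn1, Vegfc and Cdh5 did not pass. The exception was Pdpn, with a log2 difference of -1.07 (exact permutation p = 0.005, the smallest this test can give, adjusted p = 0.00857, 6 SNI against 5 sham libraries). With a library left out in turn, the value stayed between -1.25 and -0.96 and the call was kept in 9 of 11 tests. It was lost without sham day 14 replicate 2 or replicate 3 (adjusted p = 0.0514 for each). Lyve1 reads per Flt4 read ranged from 1.11 to 5.29 in SNI and from 1.18 to 22.8 in sham digits of these days, the highest being the low-factor library. Without that library the differences of Lyve1 to Flt4 and to Cdh5 were 0.59 and 0.46, against -0.22 and -0.20 with it (log2).

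**Figure D4:**
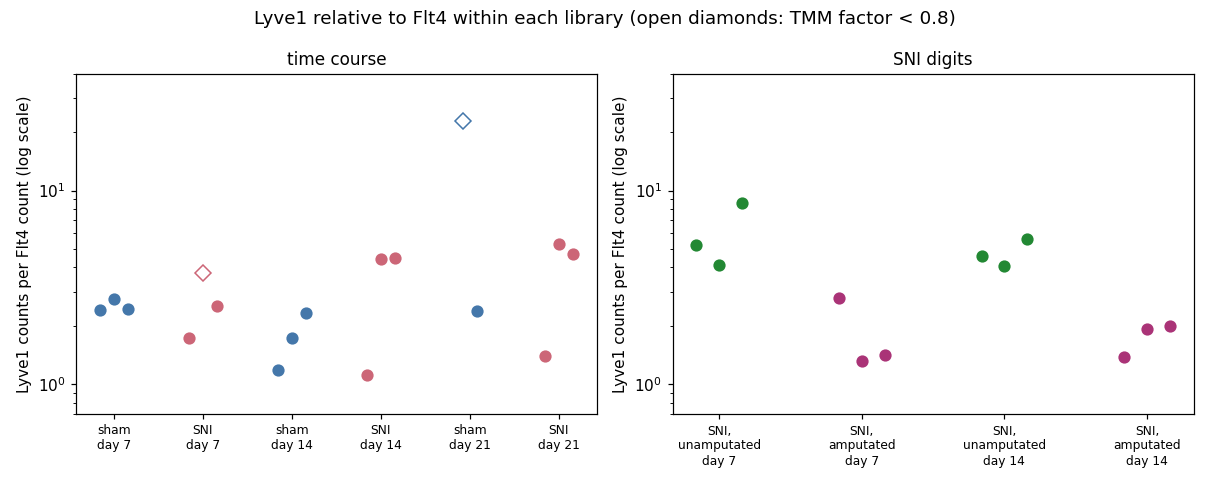
Lyve1 reads per Flt4 read in each library (y axis, log scale), in the time course on the left and in SNI digits with and without amputation on the right. Amputated digits lie between 1.32 and 2.77 and unamputated ones between 4.07 and 8.63, while the time course groups overlap at days 14 and 21.

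Other cell markers also differed with amputation. All 13 genes listed for blood endothelium, among them Cdh5 of both vessel types, had a positive value at day 7. The median log2 fold change was 0.42 beside 0.00 over all genes, and the summed level was 432 to 488 CPM against 281 to 367 CPM. Of the 13, 2 were called higher by edgeR, where 0.601% of all genes were: Vwf, the von Willebrand factor (0.95 ± 0.15, SE, adjusted p = 0.00918), and the junction gene Cldn5 (0.59 ± 0.099, SE, adjusted p = 0.0127). At day 14, 10 of 13 were positive, the sums were 364 to 406 CPM against 308 to 343 CPM, and Cldn5 was called again. With a library left out in turn, the day 7 calls were lost in 1 of 12 fits each, without unamputated day 7 replicate 1 (adjusted p = 0.0514 for Vwf and 0.0648 for Cldn5 by edgeR), and the Cldn5 call at day 14 in 4 of 12. All 6 myelin genes were negative on both days, 2 called lower at day 7 and 5 at day 14, with summed levels of 111 to 223 CPM against 346 to 351 CPM and of 108 to 118 CPM against 329 to 422 CPM.

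Resident macrophages, the other cells known to carry LYVE1, gave a mixed record. Their 10 genes summed to 681 to 861 CPM in amputated and 560 to 627 CPM in unamputated digits at day 7. Of these sums, Gas6 alone made up 524, 461 and 499 CPM against 334, 336 and 310 CPM. Gas6 was called higher, in 9 of 12 fits with a library left out. Of the 10 genes 6 were positive and 4 negative at day 7, with a median log2 fold change of 0.08. Cd163 was at 20.8, 17.1 and 16.2 CPM with amputation and at 21.4, 26.4 and 17.8 CPM without, with overlap. At day 14 the sums overlapped, at 545 to 668 CPM against 545 to 622 CPM, and 8 of 10 genes were negative. The scavenger receptor gene Cd163 was called lower at day 14 (-0.73 ± 0.16, SE, adjusted p = 0.0399 by edgeR), at 10.5, 14.0 and 14.1 CPM against 20.0, 21.7 and 22.3 CPM. That call was kept in 4 of 12 fits with a library left out, with an adjusted p of up to 0.135. The mannose receptor gene Mrc1 did not pass (-0.41 ± 0.16, SE, adjusted p = 0.154 by edgeR). The part of macrophages, blood vessels or nerve tissue in the Lyve1 difference was not tested.

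Of the wider lymphatic genes, Ccl21a, a chemokine that draws dendritic cells into lymphatics, was higher in amputated digits at day 7. It was at 45.2, 46.0 and 44.4 CPM against 13.1, 23.2 and 11.6 CPM, a log2 fold change of 1.5 ± 0.28 (SE, adjusted p = 0.0284 by edgeR). The libraries were apart, and the call was kept in 6 of 12 fits with a library left out, with an adjusted p of up to 0.133, and lost without the filter on low counts (adjusted p = 0.0914). Reads of near-identical Ccl21 copies could be split among them in counting, which leaves its level uncertain. Of the 10 further lymphatic markers 8 were positive on both days, 1 was called higher at day 7 and 0 at day 14, with medians of 0.48 and 0.27 beside 0.00 and 0.01 over all genes.

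In the VEGF-C pathway 5 of 8 genes were positive on both days, with medians of 0.14 and 0.15 and 0 called at day 7. Ccbe1, which helps to activate VEGF-C, was called higher at day 14 (1.02 ± 0.23, SE, adjusted p = 0.0413 by edgeR), and the protease gene Adamts14 was called lower (-0.88 ± 0.20, SE, adjusted p = 0.0414). With a library left out these calls were kept in 3 and 4 of 12 fits, with an adjusted p of up to 0.131 and 0.140. Among 7 transcription factors of lymphatic development 0 were called on either day, with 6 positive at day 7 and 3 at day 14.

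Lyve1 was not called with time in the second set. Its log2 change from day 7 to day 14 was -0.44 ± 0.31 (SE) without amputation (adjusted p = 1.0 by edgeR) and -0.37 ± 0.31 (SE) with it (adjusted p = 0.627). Of the other 6 genes 0 were called in either, where 0.303% and 0.607% of all genes were. Ordered by mean level, Lyve1 ran from unamputated day 7 (54.4 ± 16.5 CPM) through unamputated day 14 (40.2 ± 6.4 CPM) and amputated day 7 (24.0 ± 10.2 CPM) to amputated day 14 (18.6 ± 4.9 CPM; SD, n = 3 each). Neighbours in this order overlapped. Amputated SNI digits were sampled in both sets, in separate libraries and on scales set apart. At day 7 their Lyve1 was at 13.9 to 16.2 CPM in the time course and 16.9 to 35.7 CPM here. At day 14 it was at 16.0 to 22.5 CPM in the time course and 13.9 to 23.7 CPM here.

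Whether libraries with less Lyve1 than their group also had less of the other lymphatic genes was tested over single libraries, and no relation passed. Over the 17 time course libraries, with the group mean removed, Pearson's r with Lyve1 was -0.16 for Prox1 (rho = -0.27, permutation p = 0.394 and 0.279). It was -0.15 for Flt4 (rho = -0.14, permutation p = 0.531 and 0.595). Without the 2 libraries farthest from the Lyve1 median these were -0.06 and -0.14. In the second set r was 0.74 for Pdpn (permutation p = 0.0779), 0.39 for Mmrn1, 0.40 for Vegfc, 0.12 for Flt4, -0.06 for Prox1 and -0.13 for Reln. Without the 2 farthest libraries there, r was 0.12 for Pdpn, 0.73 for Mmrn1 and 0.54 for Flt4, so these values moved with those 2 libraries. Of 20 relations in both tables, 6 lymphatic genes and 4 markers in each, 0 passed an adjusted p of 0.05. The closest was Mrc1 in the second set (r = 0.83, rho = 0.85, permutation p = 0.0179 and 0.00924, adjusted p = 0.359 and 0.185, 12 libraries), with r = 0.66 without the 2 farthest libraries. With library sizes not scaled by TMM the time course values of Prox1 and Flt4 turned to 0.44 and 0.44, so their sign depended on the scaling.

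Across all libraries, group differences included, the 5 genes most like Lyve1 in each table were none of the other 6. The ranking covered 13171 genes of the time course and 13457 of the second set, those tested with a mean of at least 1 CPM and no predicted gene model. In the time course they were Pmp22, a peripheral myelin gene (Pearson's r = 0.80, 17 libraries), Mrs2, Nova1, Tmem100 and Atp1b1 (r = 0.79 to 0.72). In the second set they were Anxa11 (r = 0.95, 12 libraries), Fhl1, Stip1, Tppp3 and Ccn3 (r = 0.95 to 0.91). The lymphatic genes lay between -0.41 and 0.22 in the time course and between -0.62 and -0.25 in the second set. These r values are descriptions over libraries that share group and depth.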

How the data were processed

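Poly(A) RNA was measured in 29 libraries. The authors deposited unnormalized counts, 1 whole number for each gene in each library. A strand-specific kit was used, per the labels' protocols, and the submitters' processing notes name GRCm39. How reads were aligned and counted, and with which strand setting, is not stated there, so reads of Prox1 and Reln over antisense genes (1.59% and 1.04% of their exon bases in GENCODE M21, an annotation of GRCm38) may not be told apart. That annotation gave exon lengths, and symbols for 99.4% of the identifiers. No sequence or coordinate was used.

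Each table was fitted apart with the quasi-likelihood model of edgeR 4.0.16 (R 4.3.3) after filterByExpr (minimum count 10, minimum total 15) and TMM scaling, with 1 mean per group and robust dispersions (16084 and 17475 genes; common coefficient of variation 0.393 and 0.17). Adjusted p values (Benjamini-Hochberg, threshold 0.05) cover all tested genes. Log2 CPM used a prior count of 2 and ratios an offset of 0.5. The exact test permuted labels within day, and correlations used 100000 permutations within groups. The procedure was tested on simulated data. The labels call replicates biological, and no 2 libraries of a group agreed within sampling noise (lowest chi-square per gene 13.4).

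The genes, lists and tests were chosen with earlier results of these data known. Named were the 7 genes, of each list at most the 4 genes with the smallest p with Pecam1, Cdh5, Mrc1 and Cd163, and the 5 genes of highest r with Lyve1 per table. Krt14, Krt5 and Col1a1 are also named, for their part in summed levels. Alternatives were RLE size factors, no filter, DESeq2 1.42.0, limma 3.58.1 voom with sample weights, the compared groups alone, a replicate block, unscaled library sizes, another denominator, and libraries left out. A group left with a single library was taken to vary as the rest do.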

Additional observations from a re-analysis of the deposited data

How the results depend on the processing

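The lower Lyve1 level with amputation, averaged over days, kept its direction and its call under each alternative and with each of the 12 libraries left out. On a single day its call differed between tools, and with a library left out its value lay between -1.59 and -0.90 at day 7 and between -1.32 and -0.96 at day 14. At day 7 of the time course, Lyve1 in SNI against sham lay between -1.27 and -0.86 with a library left out. The Flt4 call in the average over days was lost without the filter on low counts (adjusted p = 0.0552 by edgeR) and with the replicate number as a block (adjusted p = 0.0541 by edgeR). Where a value or call changed, the cause was not tested. Prox1 at day 14 of SNI against sham was at -0.69 with limma voom (-0.15 by edgeR). The number of libraries and, for Prox1, the number of reads limit the precision.

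Counts of genes called moved with the tool, the replicate block and single libraries. DESeq2 and limma voom called 54 and 7749 genes for SNI against sham at day 7 and 1 and 14 for SNI day 14 against day 7, where edgeR called 0. They called 9 and 1371 for SNI day 21 against day 7, where edgeR also called 0. DESeq2 called 18 for SNI against sham over days 14 and 21 and 18 for the difference of the amputation effect between days. With a library left out, edgeR called 0 or 1 genes for SNI against sham over days 14 and 21. For amputation, DESeq2 and limma voom called 727 and 371 at day 7 (236 by edgeR) and 1878 and 2212 at day 14 (481 by edgeR). Limma voom called 3188 in the average over days (2060 by edgeR). Between days 14 and 7 they called 149 and 127 in unamputated digits (53 by edgeR), and DESeq2 called 473 in amputated ones (106 by edgeR). EdgeR without the filter called 21 in unamputated digits over time. On the compared groups alone edgeR called 57 for amputation at day 7, 6 for unamputated and 70 for amputated digits over time, and the calls of Ccl21a and Cldn5 at day 7 and Ccbe1 and Dmp1 at day 14 were lost there (adjusted p from 0.0579 to 0.0735).

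With a library left out, the count for amputation ran from 84 (without unamputated day 7 replicate 1) to 315 (without amputated day 14 replicate 2) at day 7. At day 14 it ran from 31 (without amputated day 14 replicate 3) to 995 (without amputated day 7 replicate 1). In the average it ran from 736 (without unamputated day 7 replicate 1) to 2428 (without unamputated day 7 replicate 3). Over time it ran from 0 (without amputated day 7 replicate 3) to 70 (without amputated day 14 replicate 1) in unamputated digits. In amputated digits it ran from 3 (without amputated day 7 replicate 2) to 138 (without unamputated day 7 replicate 3).

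Groups share replicate numbers, and the numbers did not pair the samples over the series: of 14 pairs of libraries with 1 number, 5 had deviations from their group means that correlated above 0.1 (range -0.787 to 0.387). SNI with sham at day 14 was the 1 comparison with all 3 pairs above 0.1 (0.105 to 0.243). There Lyve1 was lower in SNI in each of the 3 pairs, with a log2 fold change of -0.07 with the block and -0.07 without, given without a test. With the replicate block edgeR called 115 genes for amputation at day 7, 56 at day 14 and 1114 in the average, the calls of Cldn5, Cd163, Ccbe1, Adamts14 and Dmp1 at day 14 had adjusted p values of 0.0512, 0.0864, 0.0786, 0.0915 and 0.0962 (edgeR), and Flt4 in SNI day 21 against day 7 was at -0.0698 (0.06 without the block).

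Values near 0 changed sign, none of them called. For SNI against sham over days 14 and 21, Vegfc (0.01) was at -0.0143 with RLE factors, -0.0136 with DESeq2, -0.0857 with limma voom and -0.0355 without the low-factor libraries. Leaving out a library put it between -0.0809 and 0.0628, Prox1 between -0.43 and 0.84, Flt4 between -0.72 and 0.85 and Reln between -0.62 and 0.0059. The extremes of Prox1, Flt4 and Reln came without sham day 21 replicate 1 or 2. For SNI day 14 against day 7, Reln (-0.0019) was at 0.0043 without the filter and 0.0013 on the compared groups alone, and Flt4 (0.37) at -0.30 with limma voom. With a library left out Reln lay between -0.45 and 0.22, Flt4 between -0.35 and 0.68 and Pdpn between -0.0848 and 0.54. For SNI day 21 against day 7, limma voom gave -0.50 for Flt4 (0.06), 0.0926 for Pdpn (-0.15) and -0.0710 for Mmrn1 (0.10), and Flt4 was at -0.24 without the low-factor libraries. Without 1 library Flt4 lay between -0.66 and 0.37 and Reln between -0.47 and 0.15. For unamputated digits over time, Pdpn (-0.0020) was at 0.17 with limma voom and 0.0048 on the compared groups alone, and with a library left out Pdpn lay between -0.13 and 0.24 and Flt4 between -0.27 and 0.0266. In the same way Lyve1 in amputated digits over time lay between -0.58 and 0.0393, the difference of its amputation effect between days between -0.21 and 0.47, and the day 14 amputation effect between -0.46 and 0.0125 for Prox1 and between -0.16 and 0.20 for Mmrn1. For Mrc1 at day 7 of amputation (0.07) limma voom gave -0.0351, and leaving out a library gave -0.180 to 0.192.

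Correlations with Lyve1 in the time course, with library sizes not scaled, were 0.44 for Prox1, 0.44 for Flt4, 0.31 for Reln, 0.12 for Mmrn1, 0.50 for Vegfc, 0.53 for Pecam1 and 0.45 for Cdh5. Without the 2 farthest libraries they were -0.0058 for Pdpn, 0.0220 for Vegfc and -0.17 for Mrc1, and in the second set 0.39 for Prox1, 0.40 for Reln, -0.10 for Vegfc and 0.33 for Pecam1. Ratios of SNI against sham over days 14 and 21 without the low-factor library were 0.46 for Lyve1 to Cdh5, 0.26 for Lyve1 to Prox1, 0.59 for Lyve1 to Flt4 and -0.13 for Flt4 to Cdh5. Flt4 to Pecam1 was at -0.14 there and at 0.0380 for amputation. Without 1 library, Flt4 to Cdh5 lay between -0.13 and 0.16, and Lyve1 between -0.86 and 0.46 to Cdh5, -1.02 and 0.26 to Prox1, -1.03 and 0.59 to Flt4, and -0.30 and 0.37 to Reln.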
